A study of Rattus norvegicus with 12 samples.

Results

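A set of 40 integrin and focal adhesion genes was followed in cultured rat atrial fibroblasts. The set was chosen by gene symbol, with earlier results of these data known. It held 19 integrin chains and 21 adaptor proteins and kinases, so that it made up 40 of the 22850 features in the tables. Primary rat atrial fibroblasts were treated for 48 h with angiotensin II (AngII), with AngII and the humanin analogue HNG (AngII+HNG), or with AngII and the mitochondrial peptide MOTS-c (AngII+MOTS-c), and each treatment gave 4 RNA-seq libraries. AngII, the peptide hormone that activates fibroblasts, was used at 1 μmol/L in all 12 cultures. HNG was given at 10 μmol/L, and the MOTS-c dose was 5 μmol/L, with each peptide added 1 h before AngII in medium holding 2% serum. The cells came from the atria of Sprague-Dawley rats aged 1 to 3 days and were enriched by their quick attachment to the dish, so cells of other types that attached as fast could remain. A group without AngII was not analysed here, so each comparison describes what a peptide added to AngII and none describes AngII itself.

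Integrins are receptors of 1 alpha and 1 beta chain that span the cell membrane, and the pair decides whether the cell grips collagen, laminin, fibronectin or other matrix proteins. Talins and kindlins bind the beta tail inside the cell and switch the receptor on, after which vinculin, alpha-actinins and filamin tie it to actin and the kinase FAK signals from the site. In cardiac fibroblasts these adhesions hold the cell to the collagen network and carry the tension that accompanies fibrosis.

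The promoters of 4 genes are shown because the expression results below turn on them. Itga11 had the largest fall with HNG and Nedd9 the largest fall among the adaptors, whereas Parvb rose. Itgb1 was the most abundant gene of the set by FPKM, which divides counts by gene length. RefSeq promoters of the rat build GRCr8 were matched by symbol for 31 of the 40 genes. Each line gives the 250 bases before the annotated start in the 5′ to 3′ direction on the + strand, and the capitals mark GC boxes, the letters GGGCGG or their reverse complement CCGCCC, which are read by Sp1-type factors.
Itga11, chr8:72041182-72041431: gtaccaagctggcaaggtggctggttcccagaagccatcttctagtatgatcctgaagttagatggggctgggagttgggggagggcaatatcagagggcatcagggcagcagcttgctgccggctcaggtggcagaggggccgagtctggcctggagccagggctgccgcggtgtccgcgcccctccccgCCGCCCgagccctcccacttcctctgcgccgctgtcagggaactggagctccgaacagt
Nedd9, chr17:23623711-23623960: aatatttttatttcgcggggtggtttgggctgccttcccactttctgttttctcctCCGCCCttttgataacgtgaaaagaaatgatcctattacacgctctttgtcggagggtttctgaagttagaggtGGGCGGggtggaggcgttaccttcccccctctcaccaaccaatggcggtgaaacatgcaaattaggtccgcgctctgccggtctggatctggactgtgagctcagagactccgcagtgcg
Itgb1, chr19:73602027-73602276: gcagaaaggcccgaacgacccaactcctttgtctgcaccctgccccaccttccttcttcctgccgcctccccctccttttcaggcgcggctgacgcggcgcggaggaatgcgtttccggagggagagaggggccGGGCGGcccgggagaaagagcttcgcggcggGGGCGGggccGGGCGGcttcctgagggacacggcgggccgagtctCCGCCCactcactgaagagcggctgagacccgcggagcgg
Parvb, chr7:117239988-117240237: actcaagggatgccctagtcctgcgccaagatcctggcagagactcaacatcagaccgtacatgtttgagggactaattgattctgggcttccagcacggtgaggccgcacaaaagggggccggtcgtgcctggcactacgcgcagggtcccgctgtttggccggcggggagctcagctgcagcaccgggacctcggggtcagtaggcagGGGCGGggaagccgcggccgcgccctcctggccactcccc
The Itgb1 window held 4 GC boxes, the nearest beginning 40 bases before the start, and its GC content was 71.2%. The windows of Itga11 and Parvb held 1 box each, and that of Nedd9 held 2 at a GC content of 52.4%. Among the matched genes, 20 of 31 had a GC box within the 250 bases, against 57.8% of the 10926 promoters of genes tested here and 32.4% of all 27457 promoters with a symbol. GC boxes were chosen as a motif after the data were seen. A CArG box, the site of serum response factor, was found in 0 of 31 windows of 300 bases, where 1.64% of all promoters and 1.3% of those of tested genes had one. The AP-1 motif TGANTCA was also found in 0 of 31, against 7.33% of all promoters and 4.8% of those of tested genes. These letters describe the windows shown and say nothing about which factors acted on them.

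Library totals ranged from 27960586 to 38322354 counts, and a floor of 3 counts corresponded to 0.0783 to 0.107 reads scaled to library size (CPM). Levels are given as CPM after scaling between libraries, and the levels of the 40 genes were ordered as FPKM, which divides by gene length. Replicates 2 and 3 of every treatment share a number in their library names, and the first AngII+MOTS-c library carries a number that neither other treatment has. The methods speak of biological replicates, but whether replicates 2 and 3 came from separate cell preparations is not settled by the labels, and p-values measure only the spread between these libraries. AngII+HNG replicate 3 stood apart from its group. Its counts differed from those of the other 3 AngII+HNG libraries by a chi-square of 14.3 to 19.2 per gene, where every other pair of libraries of 1 treatment lay at 4.37 to 8.91. The fibroblast label was checked with 9 fibroblast markers. Their sum was 42100 to 47600 CPM with 0 markers missing from any library, and Col1a1 alone stood at 22830 CPM or more. The 8 cardiomyocyte markers summed to 6260 to 8230 CPM, so transcripts of heart muscle cells were present in every library as well.

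Of the 40 genes, 37 passed the filter on low counts. Itga10, a collagen-binding chain, had 0 to 16 counts per library, Itgb7, a lymphocyte chain, 0 to 10 counts, and Fermt1, the kindlin of epithelia, 0 to 8 counts. No change could be detected for these 3 genes at this depth. The other 37 spanned a wide range of FPKM (the plot of levels by gene). Itgb1, the beta chain that pairs with most alpha chains of mesenchymal cells, was highest at 991 ± 28.1 FPKM (SD, n = 4) with AngII. Flna, which crosslinks actin, followed at 469 ± 21.5 FPKM, and Actn4 and Actn1, the non-muscle alpha-actinins, at 293 ± 11.1 and 235 ± 9.37 FPKM. The ranges over the 12 libraries of Itgb1, Flna and Actn4 each stood clear of the next gene in the order, whereas those of Actn1 and Vcl overlapped. Collagen-binding Itga1 was the most abundant alpha chain at 101 ± 2.67 FPKM, followed by its relative Itga11 at 72.2 ± 4.43 FPKM. The weakest tested gene was collagen-binding Itga2, at 0.554 ± 0.0642 FPKM. The leukocyte chains Itgb2 and Itgam stood at 8.37 ± 0.684 and 3.37 ± 0.146 FPKM, near the bottom of the order. The coefficient of variation within a group had a median of 3.99% over these genes and treatments.

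**Figure D1:**
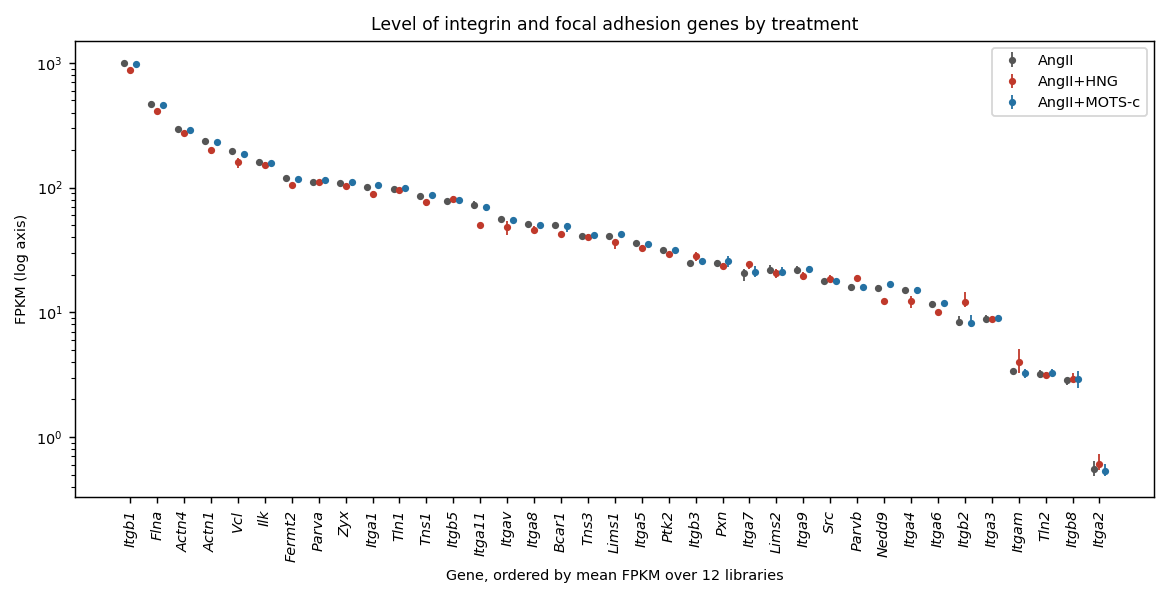
FPKM (log axis) of the 37 tested genes, ordered by their mean over 12 libraries. Points are means of 4 libraries and bars reach from the lowest to the highest library. Itgb1 stands at the top near 991 FPKM with AngII and Itga2 at the bottom near 0.554 FPKM. Differences between treatments are small beside those between genes, although AngII+HNG and AngII libraries did not overlap in CPM for 20 of the 37.

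The first comparison asked what HNG changed in AngII-treated fibroblasts. Compared to AngII alone, 16 of the 37 tested genes differed significantly with AngII+HNG, 14 of them lower and 2 higher (edgeR quasi-likelihood test, adjusted p below 0.05). This was 43.2% of the set, where 5.98% of all 14524 tested genes were called (2.58% lower and 3.4% higher). The set was chosen with earlier results of these data known, so this difference is not independent of that choice. Without AngII replicate 1, 11 of the set were called and the calls over all genes fell from 869 to 431. Among genes whose mean level reached 10 CPM, a limit added after the data were seen and met by 36 of the 37, 7.37% were called and 3.64% were lower. The median log2 fold change of the set was -0.12, against 0.0043 over all tested genes, and 28 of the 37 were below 0, where 48.7% of all tested genes were. The 4 AngII+HNG libraries did not overlap the 4 AngII libraries for 20 of the 37 genes, 17 lower and 3 higher, where 13.7% of all tested genes showed such a separation. The 16 called genes were among these 20. The changes were small, with falls of 0.14 to 0.53 on the log2 scale. In bulk RNA, fewer cells of a type and less RNA per cell cannot be told apart.

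Of the 3 collagen-binding chains tested, 2 fell with HNG. Itga11, whose pair with beta 1 grips fibrillar collagen on fibroblasts, read 423, 396, 408 and 459 CPM with AngII, 298, 293, 269.5 and 301 CPM with AngII+HNG and 374, 412, 404 and 423 CPM with AngII+MOTS-c. All 4 AngII+HNG values lay below every other library. The log2 fold change was -0.53 (SE 0.051, adjusted p = 0.000134), the largest fall in the set. Itga1, which prefers basement membrane collagen, read 1029, 967, 1014 and 1011 CPM with AngII, 936, 863, 794 and 870.1 CPM with AngII+HNG and 1031, 1029, 1053 and 1032 CPM with AngII+MOTS-c. The AngII+HNG libraries were again lowest, with a log2 fold change of -0.21 (adjusted p = 0.0185), although the call was lost without AngII replicate 1, without AngII replicate 3 or without AngII+HNG replicate 2 (adjusted p = 0.0533 to 0.069). Itga2, the platelet and epithelial collagen chain, stood at 3.74 to 5.54 CPM over the 12 libraries and its 95% interval was -0.17 to 0.40 on the log2 scale.

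Of the 3 laminin-binding chains, 1 fell. Itga6, which pairs with beta 1 or beta 4 on laminin, read 78.2, 74.9, 73.6 and 75.5 CPM with AngII, 60.5, 65.6, 62.0 and 65.4 CPM with AngII+HNG and 71.1, 78.2, 73.7 and 77.3 CPM with AngII+MOTS-c. Its highest AngII+HNG library lay below the lowest library of both other treatments, and the log2 fold change against AngII was -0.25 (adjusted p = 0.00482). For Itga7, the muscle laminin receptor, the difference was positive at 0.22 but the groups overlapped (adjusted p = 0.0785). Itga3, another laminin chain, had a log2 fold change of -0.031, with a 95% interval of -0.15 to 0.084.

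Of the 3 chains that read the RGD motif of fibronectin and vitronectin, 1 fell. Itga5, the classical fibronectin receptor chain, read 178, 179.6, 176 and 179 CPM with AngII, 168, 157, 155 and 158 CPM with AngII+HNG and 169, 169, 170.1 and 179 CPM with AngII+MOTS-c. The AngII+HNG values lay below both other groups, with a log2 fold change of -0.15 (adjusted p = 0.0273). This call was lost when any 1 AngII library or AngII+HNG replicate 2 or 4 was left out (adjusted p = 0.06 to 0.082). Itgav and Itga8, whose partners can activate latent TGF-β, had log2 fold changes of -0.23 (adjusted p = 0.0563) and -0.16 (adjusted p = 0.0809). Itga4, which binds fibronectin and VCAM-1, read 71.7, 68.5, 69.3 and 65.0 CPM with AngII, 60.8, 56.5, 48.1 and 54.5 CPM with AngII+HNG and 71.6, 63.0, 71.5 and 63.9 CPM with AngII+MOTS-c. AngII+HNG replicate 3 was the lowest library and all 4 lay below the other treatments, with a log2 fold change of -0.32 (adjusted p = 0.0105). Itga9, its close relative and a receptor of tenascin-C, read 159.7, 153, 161 and 176 CPM with AngII, 143, 135, 137 and 154 CPM with AngII+HNG and 169, 157, 156 and 174 CPM with AngII+MOTS-c. The AngII and AngII+HNG libraries of Itga9 overlapped slightly, and its log2 fold change of -0.19 did not pass the threshold (adjusted p = 0.0563).

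Among the 4 beta chains outside leukocytes, Itgb1 fell. It read 3974, 3759, 3877 and 3768 CPM with AngII, 3489, 3434, 3244 and 3222 CPM with AngII+HNG and 3854, 3806, 3603 and 3707 CPM with AngII+MOTS-c. The highest AngII+HNG library was below the lowest AngII and AngII+MOTS-c libraries, and the log2 fold change against AngII was -0.20 (SE 0.037, adjusted p = 0.00853). On log2 FPKM with a pseudocount of 0.1, limma gave adjusted p = 0.0644. For Itgb3, Itgb5 and Itgb8, the partners of alpha v, the log2 fold changes were 0.16, 0.045 and 0.0058, and none passed the test. The 12 alpha chains that can pair with beta 1 summed to 395 ± 11.3 FPKM (SD, n = 4) with AngII, 342 ± 16.8 FPKM with AngII+HNG and 394 ± 5.63 FPKM with AngII+MOTS-c. The ratio of this sum to Itgb1 lay between 0.375 and 0.421 in every library, with overlapping ranges in the 3 treatments.

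**Figure D2:**
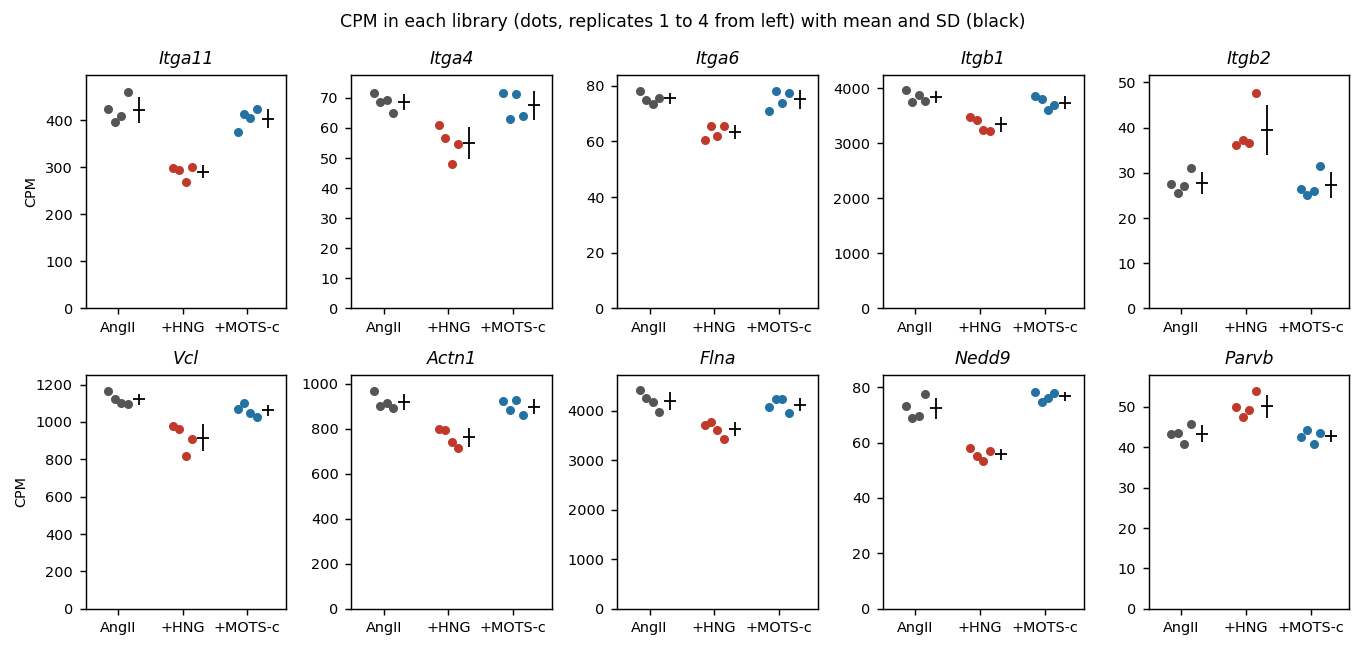
CPM of 10 genes in each library, with replicates 1 to 4 from left and the mean and SD in black. For Itga11, Itga4, Itga6, Itgb1, Vcl, Actn1, Flna and Nedd9 the AngII+HNG libraries are below all others, and for Itgb2 and Parvb they are above all others.

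The leukocyte beta chain moved the other way. Itgb2, the beta 2 chain of white blood cells, read 27.4, 25.5, 27.0 and 31.1 CPM with AngII, 36.1, 37.3, 36.5 and 47.6 CPM with AngII+HNG and 26.5, 25.0, 26.0 and 31.4 CPM with AngII+MOTS-c. Every AngII+HNG library exceeded all others and replicate 4 was highest, with a log2 fold change of 0.51 (SE 0.09, adjusted p = 0.00543). Itgam, its alpha M partner on macrophages, read 13.5, 13.4, 13.4 and 14.4 CPM with AngII, 13.4, 15.1, 16.0 and 20.7 CPM with AngII+HNG and 13.6, 12.4, 12.1 and 13.8 CPM with AngII+MOTS-c. The AngII+HNG values of Itgam spread widely and overlapped AngII, with a log2 fold change of 0.26 (adjusted p = 0.198). The sum of 12 macrophage markers was 335 to 438 CPM with AngII+HNG, 248 to 296 CPM with AngII and 245 to 294 CPM with AngII+MOTS-c. Of 11 tested macrophage markers 4 were called higher, where 3.4% of all tested genes were. They were Lyz2 (0.75 on the log2 scale), Cd68 (0.69), Mrc1 (0.55) and Ptprc (0.37). In contrast, Adgre1, the F4/80 antigen, had a log2 fold change of -0.36 and did not pass the test, C1qa, C1qb and C1qc were not called, and Cd163 was at 0 in 3 libraries. The part of macrophage content in the rise of Itgb2 was not tested.

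Of the proteins that switch integrins on, Fermt2 changed significantly. Fermt2, the kindlin of fibroblasts, read 411, 410.5, 387 and 407 CPM with AngII, 354, 351, 349.9 and 348 CPM with AngII+HNG and 397, 403, 395 and 388 CPM with AngII+MOTS-c. The AngII+HNG values lay close together and below every other library, with a log2 fold change of -0.20 (adjusted p = 0.00519). Tln1, the main talin, read 907, 897, 879 and 851 CPM with AngII, 844, 852, 847 and 822 CPM with AngII+HNG and 892, 919, 912 and 858 CPM with AngII+MOTS-c. A single AngII+HNG library of Tln1 lay above the lowest AngII library, and its log2 fold change of -0.066 did not pass the test (adjusted p = 0.318). Tln2, a talin isoform, had a 95% interval of -0.16 to 0.08 on the log2 scale.

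In the ILK-PINCH-parvin complex, which docks on the beta tail, 1 of the 5 genes was called. Parvb, the beta-parvin, read 43.4, 43.6, 40.9 and 45.8 CPM with AngII, 49.9, 47.5, 49.2 and 54.0 CPM with AngII+HNG and 42.7, 44.3, 40.8 and 43.6 CPM with AngII+MOTS-c. All AngII+HNG values exceeded the other treatments, with a log2 fold change of 0.21 (adjusted p = 0.0357), but the call was lost without any 1 of AngII replicates 1 to 3 or AngII+HNG replicates 1 and 4 (adjusted p = 0.0623 to 0.116). Parva, the more abundant alpha-parvin, had a log2 fold change of -0.014 with a 95% interval of -0.091 to 0.063. Lims1, which encodes PINCH1, read 174, 167, 178 and 171 CPM with AngII, 159, 158, 134 and 155 CPM with AngII+HNG and 179, 174, 175 and 178 CPM with AngII+MOTS-c. The AngII+HNG libraries of Lims1 lay below both other groups with replicate 3 far lowest, and the log2 fold change of -0.18 fell just short of the threshold (adjusted p = 0.0566). Ilk, the pseudokinase at the centre of the complex, and Lims2 had log2 fold changes of -0.10 and -0.11 and were not called.

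Of the 7 linkers to actin, 4 fell with HNG. Vcl, the vinculin gene, read 1164, 1124, 1102 and 1097 CPM with AngII, 976, 963, 815 and 909 CPM with AngII+HNG and 1072, 1100.0, 1046 and 1029 CPM with AngII+MOTS-c. Replicate 3 of AngII+HNG was the lowest library and all 4 lay below the other treatments, with a log2 fold change of -0.29 (SE 0.052, adjusted p = 0.00598). Actn1, the alpha-actinin of stress fibres, read 968, 901, 914 and 890.5 CPM with AngII, 801, 796, 743 and 714 CPM with AngII+HNG and 925, 884, 928 and 859.8 CPM with AngII+MOTS-c. The groups did not overlap and the log2 fold change was -0.26 (adjusted p = 0.00482). Flna read 4410.0, 4255, 4174 and 3975 CPM with AngII, 3712, 3765, 3609 and 3438 CPM with AngII+HNG and 4067, 4230.0, 4240.0 and 3964 CPM with AngII+MOTS-c. Its AngII+HNG libraries were the lowest, with a log2 fold change of -0.21 (adjusted p = 0.0105, and 0.0542 by limma on log2 FPKM with a pseudocount of 0.1). Tns1, which links integrin tails to actin in fibrillar adhesions, read 948, 909, 906 and 904 CPM with AngII, 836, 822, 749 and 817 CPM with AngII+HNG and 903, 944, 933 and 909 CPM with AngII+MOTS-c. The log2 fold change was -0.18 (adjusted p = 0.0188), and without AngII replicate 1, the highest AngII library, it was -0.17 with adjusted p = 0.073. The remaining linkers Actn4, Zyx and Tns3 had log2 fold changes of -0.12, -0.093 and -0.036 and did not pass the test.

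Of the 5 signalling genes, 3 fell. Nedd9, the Cas-family scaffold that links FAK and Src signals to migration, read 73.4, 69.0, 69.7 and 77.4 CPM with AngII, 58.0, 55.0, 53.5 and 56.9 CPM with AngII+HNG and 78.2, 74.6, 76.0 and 78.1 CPM with AngII+MOTS-c. The AngII+HNG libraries were well separated from all others, with a log2 fold change of -0.37 (SE 0.048, adjusted p = 0.000913). Bcar1, which encodes the related scaffold p130Cas, read 169.6, 169.8, 162 and 167 CPM with AngII, 144, 145, 144 and 132 CPM with AngII+HNG and 171, 167, 174 and 148 CPM with AngII+MOTS-c. Its 4 AngII+HNG values were lowest and the log2 fold change was -0.24 (adjusted p = 0.00439). Ptk2, which encodes FAK, read 149.6, 147, 149.8 and 150.0 CPM with AngII, 133, 142, 134 and 129 CPM with AngII+HNG and 146, 144, 153 and 144 CPM with AngII+MOTS-c. The groups of Ptk2 did not overlap, but its fall of -0.14 was slight (adjusted p = 0.0434) and the call was lost without any 1 AngII library or AngII+HNG replicate 1 or 4 (adjusted p = 0.0825 to 0.119). Pxn, the paxillin gene, read 99.1, 95.6, 102 and 97.0 CPM with AngII, 89.6, 90.1, 95.6 and 86.6 CPM with AngII+HNG and 105, 101, 109 and 90.5 CPM with AngII+MOTS-c. A single AngII+HNG library of Pxn reached the AngII range and the log2 fold change of -0.12 was not called (adjusted p = 0.132). Src had a 95% interval of -0.057 to 0.15.

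**Figure D3:**
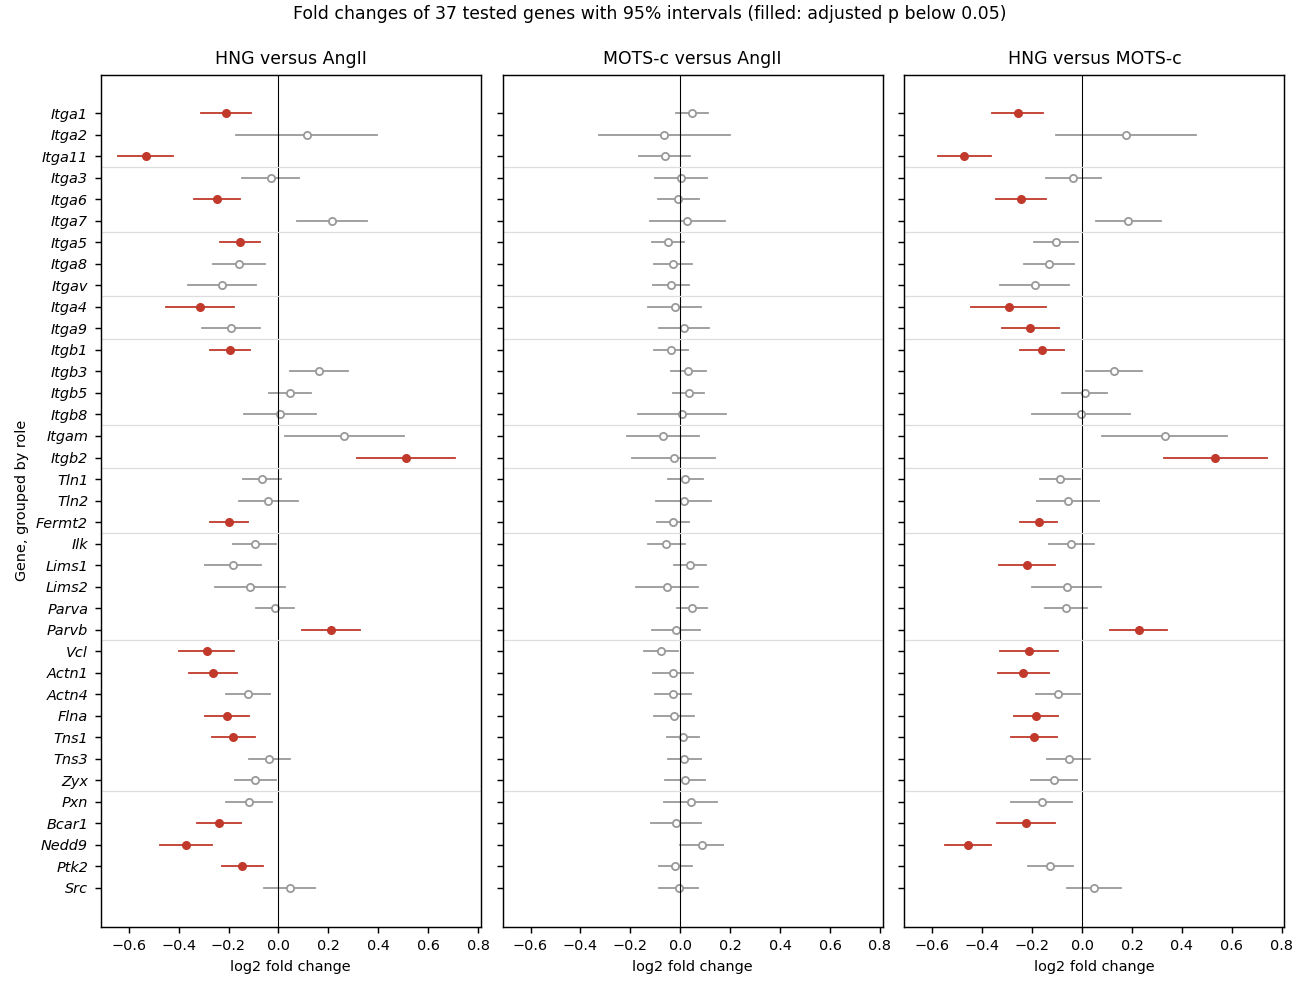
Log2 fold changes of the 37 tested genes in the 3 comparisons, grouped by role, with 95% intervals. Filled points have an adjusted p below 0.05 by edgeR, 16 for HNG versus AngII, 0 for MOTS-c versus AngII and 16 for HNG versus MOTS-c. The HNG libraries enter both comparisons in which genes are filled.

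The 21 genes that were not called had log2 fold changes below 0 in 14 cases and above 0 in 7. For 4 of them the groups still did not overlap, with Itgav, Lims1 and Actn4 lower and Itgb3 higher. Leaving out the libraries numbered 4 in both groups gave 13 called genes, and leaving out single libraries gave 11 to 20, while the calls over all genes went from 869 to 541 and to 431 to 932. Without AngII+HNG replicate 3, the library that stood apart, all 16 calls were kept and Itgav, Lims1, Actn4 and Pxn were called as well, although the fall of Itga11 was then 0.50 and that of Vcl 0.24 on the log2 scale. Some markers of other cell types also differed with HNG. Schwann and mesothelial sums overlapped, with 0 of 4 and 1 of 6 tested markers called. The 8 smooth muscle and pericyte markers summed to 1160 to 1250 CPM with AngII+HNG and to 1390 to 1490 CPM with AngII, with 3 of 8 lower (Mcam -0.38, Notch3 -0.38 and Myh11 -0.34 on the log2 scale). The 8 endothelial markers summed to 96.3 to 106 CPM against 75.1 to 84.3 CPM, with 4 of 8 higher, and the cardiomyocyte sums overlapped with 1 of 8 higher, Tnni3. Of all tested genes, 3.4% were called higher and 2.58% lower. Fibroblast marker sums overlapped, at 42100 to 47600 CPM against 45400 to 47400 CPM, but Col1a1 and Col1a2 made up most of that sum (means of 26080 and 15260 CPM with AngII). Of the other fibroblast markers, Tcf21 (0.28) and Thy1 (0.17) were higher. The part of these cell types in the falls of the adhesion genes was not tested.

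**Figure D4:**
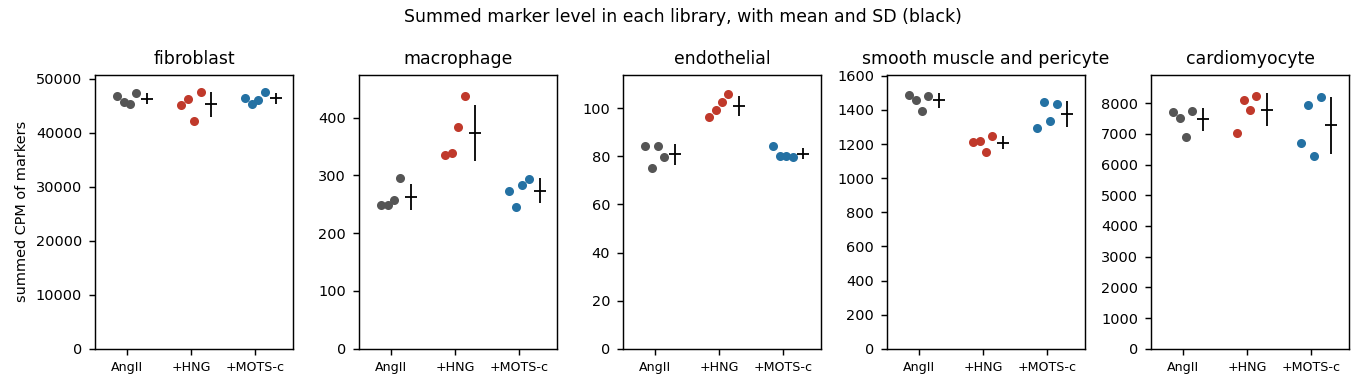
Summed CPM of 5 marker lists in each library, with the mean and SD of 4 libraries in black. With AngII+HNG the macrophage sum (335 to 438 CPM) and the endothelial sum (96.3 to 106 CPM) are above both other treatments and the smooth muscle and pericyte sum (1160 to 1250 CPM) is below them, whereas fibroblast and cardiomyocyte sums overlap.

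The second comparison asked the same of MOTS-c. Of the 37 genes, 0 differed significantly between AngII+MOTS-c and AngII by edgeR or DESeq2 (smallest adjusted p = 0.924 by edgeR), where 0.0069% of all 14488 tested genes were called. At an unadjusted p below 0.05 the count was 1, the vinculin gene Vcl, whose log2 fold change was -0.078, and 5.05% of all tested genes passed that limit. The median log2 fold change of the set was -0.017, against -0.00076 over all tested genes, and 21 of 37 were below 0, where 50.4% of all tested genes were. For 36 of the 37 genes the 95% interval lay within 0.25 on either side of 0 on the log2 scale, and the wider interval belonged to the low Itga2. The interval of Itga11 was -0.16 to 0.039. Itga1 was the single gene whose groups did not overlap, with every AngII+MOTS-c library above every AngII library by a small margin (log2 fold change 0.046, adjusted p = 0.924), and 3.41% of all tested genes were separated in this way. Nedd9, which fell with HNG, had a log2 fold change of 0.085 with MOTS-c (adjusted p = 0.924), and Itgb2 -0.026.

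The third comparison set AngII+HNG directly against AngII+MOTS-c and so tested the difference between the peptides, given at different doses. It used the same AngII+HNG libraries as the first comparison and is not independent of it. Relative to AngII+MOTS-c, 14 of 37 genes were lower and 2 higher with AngII+HNG, 43.2% of the set, where 4.41% of all 14448 tested genes were called (1.77% lower and 2.64% higher). The median log2 fold change was -0.11, against 0.0023 over all tested genes, with 29 of 37 below 0, where 49.4% of all tested genes were. The groups did not overlap for 21 of 37, where 12.6% of all tested genes were separated. The largest falls were those of Itga11 (-0.47, adjusted p = 0.000322) and Nedd9 (-0.46, adjusted p = 0.000175), and Itga1 fell by 0.26 on the log2 scale (adjusted p = 0.0081). Itgb2 was higher by 0.53 (adjusted p = 0.00725). These 4 genes were called under all 20 alternative analyses of this comparison.

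The other 12 calls between the peptides were less firm. Itga6 (-0.24) and Fermt2 (-0.17) kept adjusted p below 0.05 whichever single library was left out, and Actn1 (-0.24) reached 0.0501 without AngII+MOTS-c replicate 1. Calls of Itga4 (-0.29), Itga9 (-0.21), Itgb1 (-0.16), Lims1 (-0.22), Parvb (0.23), Vcl (-0.21), Flna (-0.18), Tns1 (-0.19) and Bcar1 (-0.22) were lost without at least 2 single libraries each, with adjusted p from 0.0506 for Vcl to 0.112 for Itga9. Each of these 9 calls was lost without AngII+MOTS-c replicate 3. The count of called genes fell to 7 without AngII+MOTS-c replicate 1 or replicate 3, to 8 without replicate 2 and to 9 without AngII+HNG replicate 4. The calls over all genes fell alongside, from 637 to 324, 389, 322 and 428 in the same order of libraries. Without AngII+HNG replicate 3 the set had 14 calls, with those of Itga9 and Itgb1 lost. Itga5 and Ptk2, called against AngII, had log2 fold changes of -0.11 and -0.13 against AngII+MOTS-c and did not pass (adjusted p = 0.17 and 0.108).

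Genes around the set were read from lists of the same pathway, also chosen with earlier results of these data known. Of 64 other focal adhesion genes tested, 16 were lower and 3 higher with HNG than with AngII alone (29.7% called, where 5.98% of all tested genes were), with a median log2 fold change of -0.064 against 0.0043 over all tested genes. The largest falls belonged to Kank4 (-0.49), which caps talin at the rim of adhesions, the Cas-binding Bcar3 (-0.36) and the LIM proteins Ajuba (-0.32) and Pdlim7 (-0.26). Fermt3, the kindlin of blood cells, was higher (0.45), as were Sorbs3 (0.30), which encodes vinexin, and Ppfibp1 (0.23), a liprin. Of 6 other integrin chains tested, 0 were called by edgeR (smallest adjusted p = 0.0899). Their log2 fold changes ran from -0.44 for Itgb6 to 0.39 for Itgax. Over these lists and the ligands described next, 26 of 97 genes were called, and 15 without AngII replicate 1.

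Integrin ligands changed in both directions. Of 27 tested, 5 were lower with HNG than with AngII and 2 higher (25.9% called against the same 5.98%), with a median log2 fold change of 0.016. Tnc, the tenascin-C gene, fell by 0.40 on the log2 scale, and the matricellular genes Ccn1 and Ccn2 had log2 fold changes of -0.36 and -0.31. Lama5 (-0.25) and Col4a1 (-0.19), of basement membranes, were lower as well. Spp1, the osteopontin gene, rose by 0.74 (adjusted p = 0.0035), and Lama2, the laminin chain of muscle, by 0.39 (adjusted p = 0.000202). With MOTS-c, 0 of the 97 genes of these lists were called against AngII by edgeR, with 4 at an unadjusted p below 0.05 (Csrp1, Cav1, Cd151 and Tnc), a limit that 5.05% of all tested genes passed.

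Against AngII+MOTS-c, 6 of the 64 other focal adhesion genes were lower and 3 higher with AngII+HNG (14.1% called, where 4.41% of all tested genes were), with a median of -0.049 against 0.0023 over all tested genes. The lower genes included Ajuba (-0.32), Pdlim7 (-0.22), Nexn (-0.22) and Rock2 (-0.22), which encode actin-binding or kinase proteins of adhesions and stress fibres. Fermt3 (0.52), the FAK-related kinase gene Ptk2b (0.35) and Sorbs3 (0.28) were higher. Of 27 ligands, 25.9% were called, namely 5 lower (Ccn1 -0.36, Ccn2 -0.28, Tnc -0.25, Lama5 -0.21 and Col4a1 -0.19) and 2 higher (Spp1 0.78 and Lama2 0.36). Of 6 other integrin chains, 0 were called by edgeR (smallest adjusted p = 0.125). The 16 calls in these lists became 10 without AngII+MOTS-c replicate 1 and 10 without replicate 2.

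**Figure D5:**
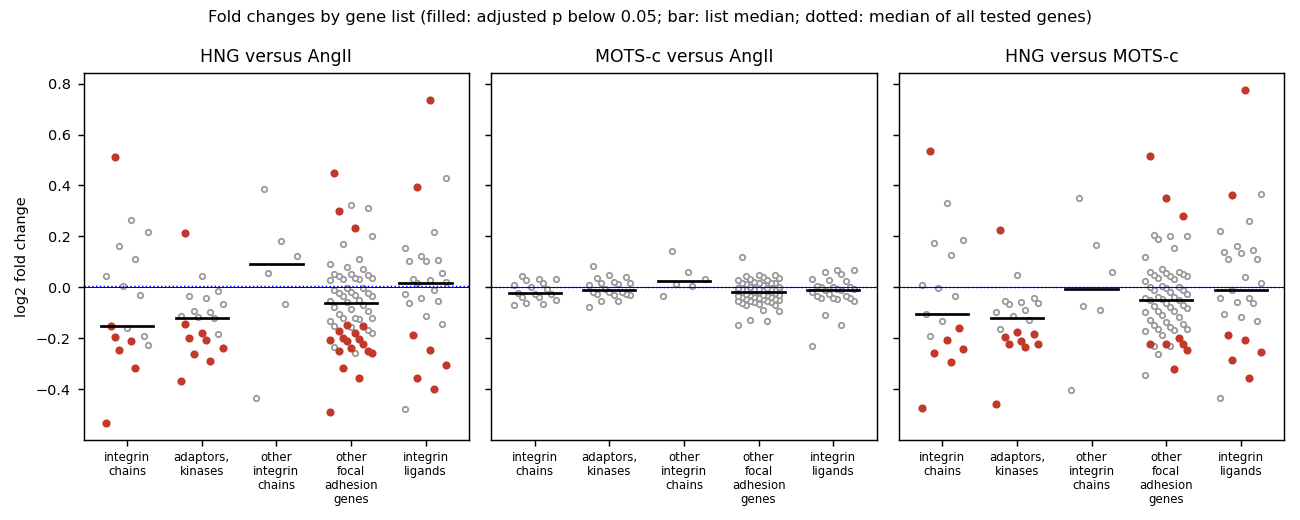
Log2 fold changes of the tested genes of 5 lists in the 3 comparisons. Filled points have an adjusted p below 0.05, black bars are list medians and the dotted line is the median of all tested genes. With MOTS-c versus AngII 0 points are filled, and with HNG versus AngII the bars of integrin chains (-0.15) and adaptors and kinases (-0.12) lie below the dotted line.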

How the data were processed

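RNA-seq libraries of 12 cultures of primary rat atrial fibroblasts were analysed, 4 per treatment, grouped by the sample titles. The authors sequenced mRNA libraries and deposited unnormalized whole-number read counts for each gene, together with FPKM values of the same libraries, in which counts are divided by gene length and library total. HISAT2, Picard 1.41 and SAMtools 0.1.18 are named in the submitters' processing notes. How reads were counted, with which strand setting and on which genome build is not given in the sources used here, so reads from overlapping antisense genes cannot be told apart. The gene length implied by count and FPKM differed between libraries by up to 1.106-fold among the 37 tested genes (Itgam), the 3 lowest genes of the set not included, which is why counts were tested and FPKM used for levels. Features assembled from the reads took 0.188% to 0.196% of counts.

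The count test was the quasi-likelihood test of edgeR 4.0.16 under R 4.3.3 (filterByExpr, TMM scaling, glmQLFit and glmQLFTest), fitted separately to the 8 libraries of each comparison with no fold limit. P-values were adjusted by Benjamini-Hochberg over all tested genes, with a threshold of 0.05. Intervals are at 95% and cover the spread between libraries. The computation was also run on simulated counts drawn independently for each library, which cannot show effects of shared cell preparations. Alternatives were DESeq2 1.42.0, RLE size factors, no filter, at least 10 counts per library, a joint fit of all 12 libraries, robust dispersion, blocks by replicate number or library name, replicates 2 and 3 summed, limma 3.58.1 on log2 FPKM with pseudocounts of 1 and 0.1, both libraries numbered 4 left out, and each library left out.

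The 40 genes and the pathway and marker lists were chosen with earlier results of these data known. By rule, every gene of the set called in any comparison was given with its 12 values, together with Itgb1, Itgam, Itgb2, Ptk2, Tln1, Vcl and Pxn, and from the pathway lists up to 5 called genes per direction with the largest changes and a mean of at least 1 CPM, of which 1 gene is not reported here. Itgax, Itgb6, Csrp1, Cav1 and Cd151 were named after their values were seen. Promoter sequences came from RefSeq (GRCr8), and Actn4, Fermt2, Itga6, Itga7, Itgb2, Itgb3, Parva, Ptk2 and Tns1 were not matched.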

Additional observations from a re-analysis of the deposited data

Results flagged for a closer look

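In 111 groups of 4 libraries, 1 for each tested gene and treatment, 13 held a library whose gap to its nearest neighbour exceeded Dixon's 95% limit for 4 values. Chance gives about 1 in 20 groups. Of the 13, 7 lay in libraries numbered 4 and 1 in AngII+HNG replicate 3, the library that differed most from its group. Among genes called with HNG, Itgb2 read 47.65 CPM in AngII+HNG replicate 4 with the next library at 37.31 CPM, and this library widened the spread of a gene whose call held without it. Bcar1 read 132 CPM in the same library, below the next at 143.5 CPM. Tns1 stood at 947.9 CPM in AngII replicate 1 with the next at 909.1 CPM, and without that library its call was lost (adjusted p = 0.073). Fermt2 was lowest in AngII replicate 3 at 387.4 CPM and Ptk2 in AngII replicate 2 at 147.4 CPM, both still above every AngII+HNG library. Lims1 was lowest in AngII+HNG replicate 3 at 134 CPM, with the next at 155.4 CPM.

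With AngII+MOTS-c, replicate 4 was highest for Itga5 at 178.9 CPM and lowest for Ilk at 266.4 CPM and for Zyx at 273.7 CPM. Itga1 was highest in AngII+MOTS-c replicate 3 at 1053 CPM, in a group whose other libraries began at 1029 CPM, and Lims2 was highest in AngII+MOTS-c replicate 2 at 46.61 CPM. In AngII replicate 4, Itgb8 was lowest at 23.23 CPM and Itgam highest at 14.36 CPM.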

How the results depend on the processing

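The direction of each of the 16 called genes held under all 20 alternatives of HNG versus AngII and of HNG versus MOTS-c, whereas uncalled genes near 0 changed sign under some, such as Itga3 (-0.059 to 0.0043 on the log2 scale for HNG versus AngII). For HNG versus AngII the count of called genes was 16 and ranged from 11 to 22, while calls over all genes were 869 and ranged from 431 to 1192. The calls of Itga11, Itga6, Itga4, Itgb2, Fermt2, Vcl, Actn1, Bcar1 and Nedd9 held under every alternative, while 7 were lost under at least 1, and 8 uncalled genes were called under at least 1. For MOTS-c versus AngII the count was 0 throughout. For HNG versus MOTS-c it was 16, but 10 with replicates 2 and 3 summed, 8 and 9 on log2 FPKM with pseudocounts of 1 and 0.1, 10 with both libraries numbered 4 left out, and 7 to 15 with single libraries left out. Calls over all genes went from 637 to 430, 437, 445 and 377 in the same order, and to 322 to 625 with single libraries left out. The pathway lists gave 26 calls for HNG versus AngII, but 16 and 17 on log2 FPKM with pseudocounts of 1 and 0.1, and 15 to 28 with single libraries left out. Calls over all genes went from 869 to 640 and 644, and to 431 to 932 with single libraries left out. For HNG versus MOTS-c the lists gave 16, but 29 with DESeq2, 29 with all 12 libraries in one fit, 10 on log2 FPKM with a pseudocount of 1, and 10 to 20 with single libraries left out. Calls over all genes went from 637 to 1034 with DESeq2, 975 in the joint fit and 437 on that log2 FPKM. The cause of these moves was not tested.

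The main fit did not take replicate numbers as pairs. Deviations from the group mean correlated between libraries of 1 replicate number by -0.0755 to 0.136 for HNG and AngII. The values were 2.56e-05 to 0.119 for MOTS-c and AngII and -0.014 to 0.212 for HNG and MOTS-c. The -0.014 belongs to replicate 1, whose 2 library names carry different numbers. Replicate 4 had the highest value in each comparison (0.136, 0.119 and 0.212). Whether libraries shared a preparation was not tested. When replicate number was fitted as a block, the set had 19, 0 and 19 calls in the 3 comparisons and the pathway lists had 32 for HNG versus MOTS-c. The calls gained were those of Itga9, Itgav and Itga8 for HNG versus AngII (adjusted p = 0.00704, 0.00863 and 0.0181) and of Itga7, Pxn and Itgav for HNG versus MOTS-c. With blocks by library name the set had 19, 0 and 11 calls. For HNG versus MOTS-c the calls of Itga4, Itgb1, Fermt2, Lims1, Parvb and Vcl were then lost and another was gained. Over all genes, calls for HNG versus AngII numbered 869, 431 without AngII replicate 1 and 1111 with the block by replicate number. For HNG versus MOTS-c they numbered 637, 322 without AngII+MOTS-c replicate 2, 1054 with the block by replicate number and 485 with the block by library name. With 4 libraries per group and effects near 0.15 on the log2 scale, calls such as those of Itga5 and Ptk2 lay at the limit of this spread.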
